A study of Bos taurus with 3 samples.

Results

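The cells described here are rumen epithelial cells that held RNA of *DLK2* and *AOX1* and no detected RNA of *PDK4*. They were defined by their own counts. A cell was a member when it had at least 1 UMI (unique molecular identifier, the tag that marks 1 captured RNA molecule) of *DLK2*, at least 1 UMI of *AOX1* and 0 UMIs of *PDK4*. There were 315 such cells among 20728, or 1.52%. They came from 3 adult lactating Holstein cows, and 94 of 3369 cells of cow 1, 71 of 7401 of cow 2 and 150 of 9958 of cow 3 were members. The tissue was the ventral sac of the rumen, stripped of muscle, digested with enzymes and read by droplet single-cell RNA sequencing of transcript 3' ends, with 1 library per cow. All cows shared 1 condition, so nothing below compares treatments, and the authors had kept epithelial cells and removed other cell types before deposit. Below, + marks a cell with at least 1 UMI of a gene and - a cell with 0 UMIs, so *DLK2*+ *AOX1*+ *PDK4*- cells are the members.

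*DLK2* (ENSBTAG00000005850) encodes an EGF-like membrane protein of the Delta family, which acts on Notch signalling, and the study used it to name granule cells of the rumen epithelium. *AOX1* (ENSBTAG00000009725) encodes aldehyde oxidase, a molybdenum enzyme that oxidises aldehydes, retinal among them, and many nitrogen-containing ring compounds. *PDK4* (ENSBTAG00000014069) encodes a kinase that switches off pyruvate dehydrogenase and is known for its rise in fasting, when tissues turn from glucose to fat. The rumen epithelium is a layered squamous epithelium that takes up the volatile fatty acids (VFAs) made by rumen microbes and turns part of them into ketone bodies.

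Members made up 6.61% of the *DLK2*+ cells of cow 1, 1.86% of those of cow 2 and 5.76% of those of cow 3 (315 of 7834 in all, 4.02%). Among cells with both *DLK2* and *AOX1* the cows stood further apart: 94 of 281 cells were members in cow 1 (33.5%), 71 of 472 in cow 2 (15.0%) and 150 of 228 in cow 3 (65.8%). Cow 3 therefore gave the most members, and cow 2 had the most *DLK2*+ *AOX1*+ cells but the fewest members. The libraries shared 35 barcode sequences, and 2 members carried one of them.

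*AOX1* was found more often in cells with *DLK2* than in cells without it. It had a UMI in 19.7%, 12.4% and 8.76% of the *DLK2*+ cells of cows 1, 2 and 3, and in 8.79%, 6.43% and 5.59% of their *DLK2*- cells. Dividing cells, taken as those with UMIs of both *MKI67* and *TOP2A*, had the lowest shares, 2.50%, 2.82% and 3.70%, although they were the deepest (median 15340.5 UMIs over 1724 cells, against 9950 for *DLK2*+ cells). With every cell thinned to 5000 UMIs the shares were 16.7%, 9.74% and 5.79% with *DLK2* and 4.95%, 3.72% and 3.42% without, and 0.866%, 0.483% and 1.37% in dividing cells. The order of the 3 classes was thus the same in each cow with and without thinning. Free RNA can place a UMI in a cell that does not express the gene, and dividing cells are not known to lack *AOX1*, so their share stands here as a reference class only.

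*PDK4*, in turn, was found more often in *DLK2*+ cells with *AOX1* than in those without. *PDK4* had a UMI in 66.5%, 85.0% and 34.2% of *DLK2*+ *AOX1*+ cells and in 47.5%, 68.4% and 20.6% of *DLK2*+ *AOX1*- cells. At 5000 UMIs per cell the shares were 62.1%, 77.7% and 26.7% against 39.4%, 58.1% and 15.4%. Members were thus the smaller share of *AOX1*+ *DLK2*+ cells in cows 1 and 2 and the larger share in cow 3. These shares use the genes of the rule and are given as a description.

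Most members rested on a single UMI of *AOX1*. In cow 1, 53 of 94 members had 1 UMI, 17 had 2 and 24 had 3 or more. In cow 2 the numbers were 47, 15 and 9, and in cow 3 they were 123, 19 and 8. The highest counts in 1 cell were 18, 5 and 7. As a level, that is, UMIs of the gene per 10000 UMIs of all members of a cow added together, *AOX1* stood at 3.11, 1.66 and 1.48 in members and at 3.04, 1.48 and 1.56 in *DLK2*+ *AOX1*+ *PDK4*+ cells. *DLK2* stood at 2.35, 2.51 and 1.67 in members and at 1.61, 1.68 and 1.48 in *DLK2*+ *AOX1*- cells. *PDK4* was at 0 in members by the rule, at 5.71, 7.79 and 2.62 in *DLK2*+ *AOX1*+ *PDK4*+ cells and at 1.65, 3.69 and 0.402 in *DLK2*+ *AOX1*- cells.

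Members were shallower and poorer in mitochondrial RNA than the *DLK2*+ cells without *AOX1*. Their median depth was 7052.5, 7767 and 7701 UMIs in cows 1, 2 and 3, against 9932, 12380.5 and 9348 in *DLK2*+ *AOX1*- *PDK4*- cells. Their median mitochondrial share was 10.4%, 7.50% and 9.78%, against 16.3%, 11.03% and 12.0%. *DLK2*+ *AOX1*+ *PDK4*+ cells were like the members in both respects, with 7861, 8406 and 8147.5 UMIs and 8.93%, 7.64% and 9.60%. At an equal 5000 UMIs per cell, members had more genes with a UMI (medians 1433, 1337 and 1338) than *DLK2*+ *AOX1*- *PDK4*- cells (1294, 1213 and 1323). Each of these differences had the same direction in 3 of 3 cows, and the exact two-sided sign-flip permutation test of 3 paired differences gave p = 0.25, the smallest it can give.

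**Figure D1:**
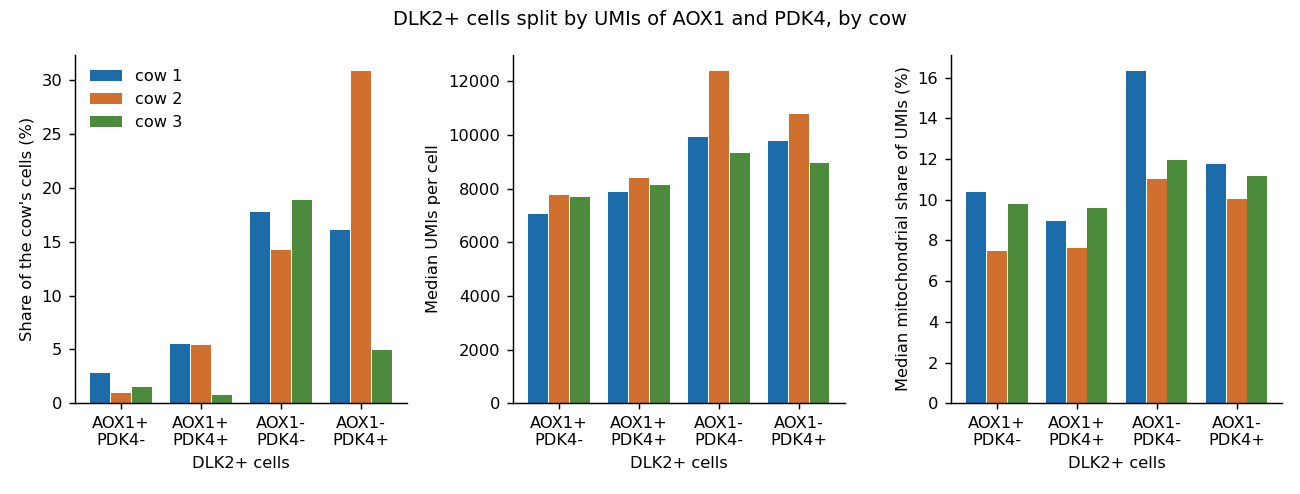
Bars give, for each cow, the share of that cow's cells (%), the median UMIs per cell and the median mitochondrial share of UMIs (%) in *DLK2*+ cells split by UMIs of *AOX1* and *PDK4*. Members, at the left of each panel, made up 2.79%, 0.959% and 1.51% of the cells of cows 1, 2 and 3, and both *AOX1*+ groups lay below both *AOX1*- groups in depth and in mitochondrial share in every cow.

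The members held keratinocyte markers. Any group of these cells was selected for that, as the authors had kept only epithelial cells before deposit. Summed over 16 basal keratinocyte genes, the level of members was 112, 127 and 151 UMIs per 10000. Summed over 19 genes of terminal differentiation it was 3.44, 3.09 and 1.18, against 2.69, 3.40 and 1.08 in *DLK2*+ *AOX1*- *PDK4*- cells, higher in 2 of 3 cows. Of those genes 8, *KRT1*, *IVL*, *LOR*, *SPINK5*, *CNFN*, *KRTDAP*, *SBSN* and *ALOX12B*, had 0 UMIs in all members together, and 3 had 0 UMIs in the compared cells, whose sums were larger. Of the 10 tested in the second comparison below 1 was lower, *EVPL*, the envoplakin gene (-1.52 ± 0.42, adjusted p = 0.0201). It was not called when the compared cells were matched on depth (-1.44, adjusted p = 0.157) or all cells thinned to 5000 UMIs (-0.69, adjusted p = 0.745). The study uses *DLK2* as a marker of granule cells. Whether that name fits these cells was not tested, and they are called by their rule. Of genes that mark other cell types, all 7 fibroblast genes and all 3 hemoglobin genes were at 0 UMIs, as were 6 of 8 endothelial, 4 of 8 smooth muscle, 3 of 4 melanocyte, 4 of 8 nerve or Merkel and 6 of 16 immune genes. In *DLK2*+ *AOX1*- *PDK4*- cells, whose sums were larger, these numbers were 4, 1, 6, 2, 2, 4 and 4. The immune genes summed to 0.415, 0.492 and 0.443 UMIs per 10000 in members and 0.352, 0.416 and 0.250 in *DLK2*+ *AOX1*- *PDK4*- cells, and of the 4 tested 0 were called by edgeR or DESeq2 or had an unadjusted p under 0.05. The nerve or Merkel genes summed to 0.304, 0.169 and 0.179 in members and 0.202, 0.112 and 0.175 in those cells. Of the 3 tested 0 were called by edgeR or DESeq2 or had an unadjusted p under 0.05.

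The question put to the data was how the members differ from other *DLK2*+ cells. UMIs were added up per cow and group, and the sums were compared with edgeR's quasi-likelihood test with the cow as a block, which sets members of a cow against other cells of the same cow. A gene was called when its Benjamini-Hochberg adjusted p was under 0.05 and its log2 fold change was over 0.25 in size. *DLK2*, *AOX1* and *PDK4* were left out of the tests. Against *DLK2*+ *AOX1*- cells (6853 cells), 117 of 7687 genes were higher in members (1.52%) and 193 were lower (2.51%). Against *DLK2*+ *AOX1*- *PDK4*- cells (3538 cells), which match the members in *PDK4*, 188 of 10250 genes were higher (1.83%) and 480 were lower (4.68%), and 175 and 470 of them had that direction in each of the 3 cows. With RLE in place of TMM scaling edgeR called 268 higher and 314 lower, and DESeq2, which differs in its model too, called 316 and 303. Both comparisons use the same member cells and share comparison cells, so they are not separate evidence, and the values below are log2 fold changes ± SE of the second unless stated.

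Most of these differences kept their direction at a smaller size when the comparison cells were drawn to have the depth of the members. With 850 *DLK2*+ *AOX1*- *PDK4*- cells matched on UMIs per cell within each cow (210, 200 and 440 cells), 47 genes were higher and 35 lower (82 of 8397, 0.977%), and against depth-matched *DLK2*+ *AOX1*- cells 9 were higher and 6 lower (15 of 7146, 0.21%). Of 658 called genes that could be fitted again in the second comparison, 655 kept their sign, and the median ratio of the matched to the unmatched log2 fold change was 0.565. The members were the same in both fits, and the matched cells were drawn from the compared cells. The genes were chosen by the unmatched fit, so the kept signs and smaller sizes are a description. With all cells thinned to 5000 UMIs, the rule was applied again to the thinned counts. This changed the groups too, to 166 members and 2538 *DLK2*+ *AOX1*- *PDK4*- cells. In these smaller groups some genes named below that passed against depth-matched cells missed the threshold, namely *UACA* (0.35, adjusted p = 0.0501), *RBPJ* (0.50, adjusted p = 0.0866), *PARM1* (1.32, adjusted p = 0.0517), *HDGFL3* (1.62, adjusted p = 0.148), *SLC14A1* (-1.31, adjusted p = 0.103) and *FABP4* (-0.86, adjusted p = 0.576). Others named below missed it against depth-matched cells but passed with thinned cells. Among them were *KCNAB1* (1.51, adjusted p = 0.0019), *TIMP2* (1.55, adjusted p = 0.00241), *CYP26A1* (-0.84, adjusted p = 0.00301), *KRT6A* (-1.52, adjusted p = 7.18e-06) and *TXN* (-0.52, adjusted p = 0.00366). The same held for *BMPR1B*, *ANGPTL4*, *CCN2*, *NFKBIA* and *TOP2A*. Without the cow block, that is, with the spread between cows counted as error, 0 genes were called in the first comparison, although 235 had an unadjusted p under 0.05 (DESeq2 with the block called 65 higher and 156 lower), and 1 higher and 1 lower in the second.

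The 3 genes proposed as markers of these cells beside the rule were higher in members. They were chosen with earlier results of these data known, so their direction is not independent evidence. *UACA* (ENSBTAG00000013982), which encodes a protein with ankyrin repeats and coiled coils, was the abundant one. Its level was 17.6, 9.95 and 13.0 UMIs per 10000 in members (13.5 ± 3.86, SD, n = 3 cows) and 7.72, 5.66 and 9.77 in *DLK2*+ *AOX1*- *PDK4*- cells (7.72 ± 2.05). It was higher in each cow, with the widest gap in cow 1 and the narrowest in cow 3, although the level of cow 3 without *AOX1* lay close to that of cow 2 with it. The log2 fold change was 0.59 ± 0.10 (adjusted p = 6.73e-05) and 0.38 against depth-matched cells (adjusted p = 0.0125). Nearly every *DLK2*+ cell held it: 307 of 315 members (97.5%) had a UMI, and 95.5% of *DLK2*+ *AOX1*- *PDK4*- cells, so it differed in amount rather than in presence.

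*HLF* (ENSBTAG00000006618), a transcription factor of the PAR bZIP family that carries clock output, was at 0.636, 0.215 and 0.404 in members and 0.202, 0.127 and 0.254 in *DLK2*+ *AOX1*- *PDK4*- cells. Its log2 fold change was 0.83 ± 0.22 (adjusted p = 0.0131) and 0.64 against depth-matched cells, where it missed the threshold (adjusted p = 0.103). It had a UMI in 35 of 94, 11 of 71 and 42 of 150 members (37.2%, 15.5% and 28.0%). In *DLK2*+ *AOX1*- *PDK4*- cells the shares were 19.2%, 14.9% and 20.8%, so those of cow 2 lay close together. *KCNAB1* (ENSBTAG00000018465), the beta subunit of voltage-gated potassium channels, was at 0.332, 0.0923 and 0.334 in members and 0.133, 0.0389 and 0.106 without *AOX1*, a log2 fold change of 1.34 ± 0.22 (adjusted p = 4.59e-05). Against depth-matched cells it was 0.71 with adjusted p = 0.223, and with thinned cells 1.51 with adjusted p = 0.0019. Both genes were higher in members of each cow and lowest in cow 2 in both groups. In the first comparison, against all *DLK2*+ *AOX1*- cells, *UACA* rose by 0.49, *HLF* by 0.72 and *KCNAB1* by 1.18 (adjusted p = 0.000672, 0.00655 and 0.00199), and none of the 3 passed against depth-matched cells there.

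*CDKN1C*, the inhibitor of cyclin-dependent kinases also called p57, had the clearest rise of all named genes by its adjusted p. It stood at 0.926, 0.908 and 1.17 UMIs per 10000 in members and at 0.270, 0.181 and 0.387 in *DLK2*+ *AOX1*- *PDK4*- cells, with no overlap between groups. The fold was 3.16 (log2 1.66 ± 0.17, adjusted p = 1.91e-08), and against depth-matched cells the log2 fold change was 0.74 (adjusted p = 0.00389). A UMI of *CDKN1C* was found in 35.1%, 36.6% and 48.0% of members against 17.7%, 12.1% and 22.2%, with members the shallower group. Against all *DLK2*+ *AOX1*- cells it rose by 1.20 ± 0.11 (adjusted p = 5.02e-07), but the depth-matched value there was 0.46 (adjusted p = 0.24).

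**Figure D2:**
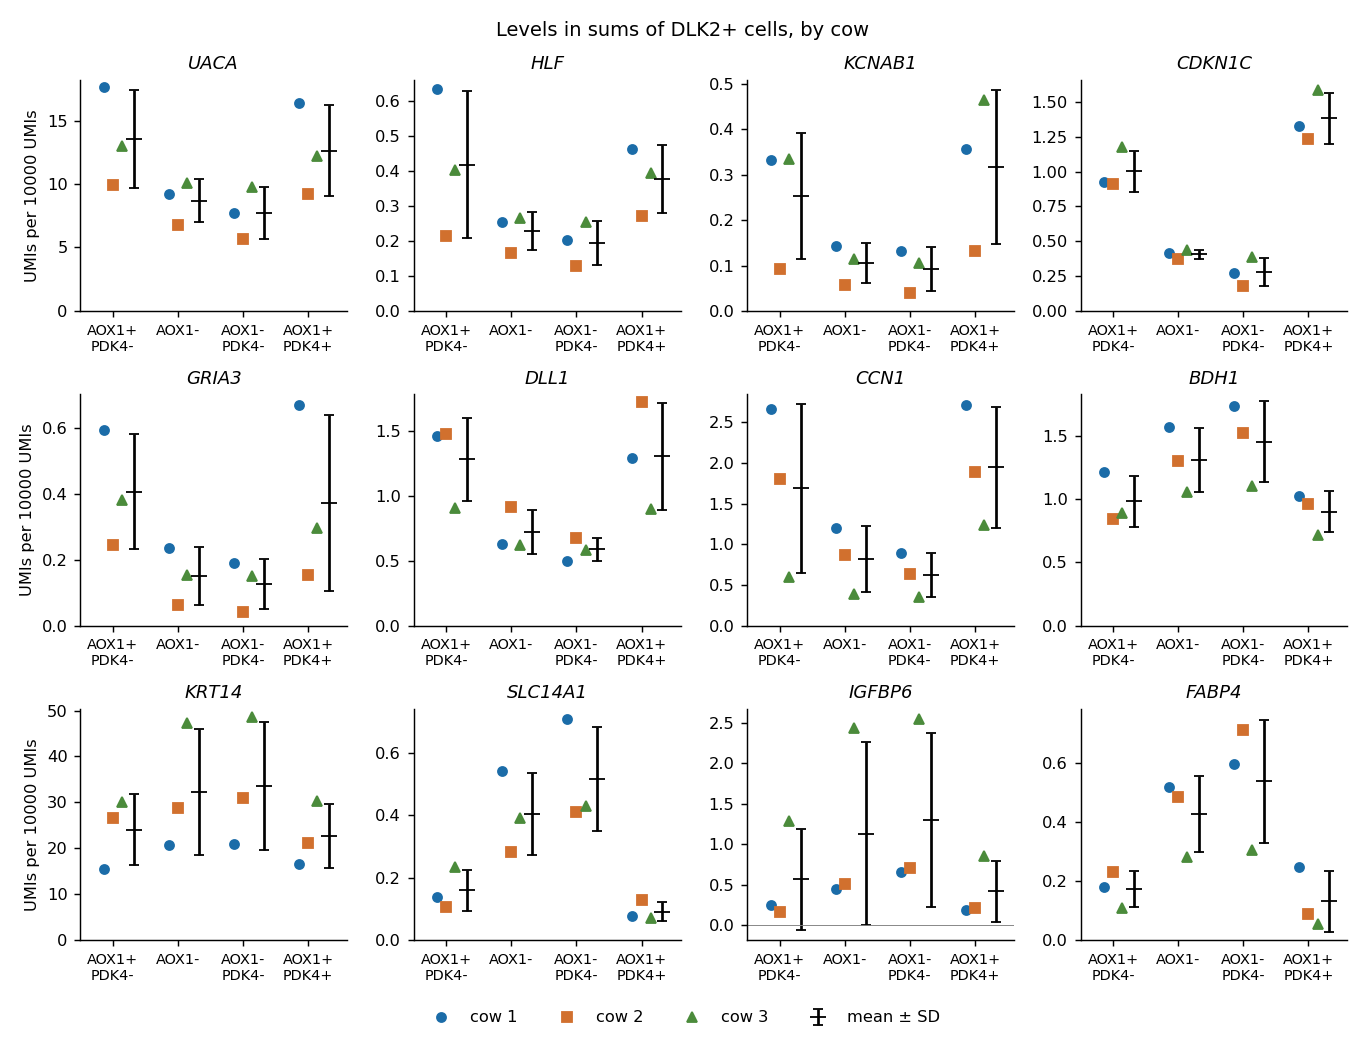
Levels (UMIs per 10000 UMIs of the summed cells) of 12 genes in members and 3 groups of other *DLK2*+ cells, with 1 point per cow and the mean ± SD of 3 cows. *CDKN1C* lay at 0.908 to 1.17 in members and at 0.181 to 0.387 in *AOX1*- *PDK4*- cells, *SLC14A1* lay at 0.108 to 0.233 against 0.411 to 0.709, and *AOX1*+ *PDK4*+ cells sat near the members in most panels.

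The genes named next were among the 10 called genes with the largest rises in the first comparison. *GRIA3*, a subunit of AMPA glutamate receptors, was at 0.594, 0.246 and 0.381 in members and 0.189, 0.0404 and 0.150 in *DLK2*+ *AOX1*- *PDK4*- cells. It rose by 1.45 ± 0.24 (adjusted p = 4.27e-05) and by 1.03 against depth-matched cells (adjusted p = 0.00389). *TIMP2*, an inhibitor of matrix metalloproteases, rose by 1.75 ± 0.27 (adjusted p = 1.5e-05), and did not pass against depth-matched cells (0.86, adjusted p = 0.125). The mucin-like *PARM1* rose by 1.32 ± 0.28 and *HDGFL3*, a relative of hepatoma-derived growth factor, by 1.75 ± 0.33, and both also passed against depth-matched cells (adjusted p = 0.0242 and 0.0129). *EFEMP1*, which encodes the matrix protein fibulin-3, rose by 1.73 ± 0.41 and the BMP receptor gene *BMPR1B* by 1.38 ± 0.31 (adjusted p = 0.00483 and 0.00335), and neither passed against depth-matched cells, where they had 1.14 (adjusted p = 0.227) and 1.17 (adjusted p = 0.0951).

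The largest folds rested on few molecules. *COL8A1*, a short-chain collagen gene, had 3, 1 and 16 UMIs in the members of cows 1, 2 and 3 and a log2 fold change of 3.41 ± 0.58 (adjusted p = 7.26e-05, and 0.0389 against depth-matched cells). The phosphatase gene *DUSP26* had 12, 4 and 2 UMIs and rose by 2.41 ± 0.46 (adjusted p = 0.00044), and missed the threshold against depth-matched cells (1.91, adjusted p = 0.0687).

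Genes of the Notch pathway, to which *DLK2* belongs, were looked at as a list of 31 further genes. In the second comparison 3 of 18 tested were higher and 0 lower, with a median log2 fold change of -0.01 where the median over all genes was -0.05. Of the 31 genes 9 had 0 UMIs in members and 3 in the compared cells, whose sums were larger. The ligand gene *DLL1* stood at 1.46, 1.48 and 0.909 in members and 0.499, 0.680 and 0.584 in *DLK2*+ *AOX1*- *PDK4*- cells (0.87 ± 0.15, adjusted p = 9.56e-05). The members of every cow lay above the cells without *AOX1* of every cow. *RBPJ*, the DNA-binding partner of activated Notch, was at 1.91, 1.83 and 1.34 against 1.06, 0.873 and 0.808 (0.67 ± 0.10, adjusted p = 1.82e-05), again without overlap. The ligand gene *JAG1* rose by 0.32 ± 0.09 (adjusted p = 0.0195). Against depth-matched cells *RBPJ* passed (0.45, adjusted p = 0.0454), while *DLL1* had 0.41 (adjusted p = 0.108) and *JAG1* 0.20 (adjusted p = 0.568).

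Of 9 genes for molybdenum enzymes and their cofactor, 6 were tested and 0 called by edgeR, with 1 at an unadjusted p under 0.05 and 1 called by DESeq2, and the median was 0.04. Of these genes, *MOCOS*, *MOCS3* and *MTARC1* had 0 UMIs in members, and 0 genes were at 0 UMIs in *DLK2*+ *AOX1*- *PDK4*- cells. The sums of those cells were larger, with 39446346 UMIs against 2660648 in members, so a count of 0 in members does not show absence. *MOCOS* encodes the enzyme that adds the sulfur aldehyde oxidase needs. In the list of aldehyde and retinoid metabolism, 2 of 15 tested genes were higher and 2 lower (median -0.05, equal to that of all genes). Of its 28 genes 10 had 0 UMIs in members and 2 in the larger sums of the compared cells. *DHRS3*, which reduces retinal to retinol, was at 1.87, 1.60 and 1.64 against 0.976, 0.843 and 1.12 (0.58 ± 0.10, adjusted p = 0.000162). The mitochondrial aldehyde dehydrogenase gene *ALDH2* rose by 0.29 ± 0.09 (adjusted p = 0.0357). *CYP26A1*, which breaks down retinoic acid, fell from 1.20, 2.49 and 1.28 to 0.691, 1.54 and 0.933 (-0.82 ± 0.13, adjusted p = 1.66e-05), and the receptor gene *RARG* fell as well (-0.49 ± 0.15, adjusted p = 0.0438). None of the 4 passed against depth-matched cells, where the values were 0.31, 0.29, -0.45 and -0.39.

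Of the genes linked to *PDK4* through PPAR, FOXO and glucocorticoid control, 3 of 29 tested were higher and 3 lower (median 0.13). *CDKN1C* belongs to this list, and so does *ANGPTL4*, a secreted inhibitor of lipoprotein lipase, which stood at 0.511, 1.03 and 0.350 against 0.245, 0.489 and 0.245 (0.66 ± 0.18, adjusted p = 0.0185, and 0.54 with adjusted p = 0.227 against depth-matched cells). *FABP4*, the fatty acid carrier, was among those that fell.

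Clock genes were tested because *HLF* is one of their targets, and 3 of 17 were higher and 1 lower (median 0.25). Beside *HLF*, these were *NR1D1*, a repressor of the clock loop (0.719, 0.523 and 0.342 against 0.248, 0.314 and 0.205, a rise of 0.80 ± 0.16, adjusted p = 0.000485), and *DBP*, a PAR bZIP factor (0.53 ± 0.15, adjusted p = 0.0264). *BHLHE41*, another clock repressor, fell (-1.23 ± 0.28, adjusted p = 0.00293). None of the 4 passed against depth-matched cells, where *NR1D1* had 0.47 (adjusted p = 0.23), *DBP* 0.35 (adjusted p = 0.527) and *BHLHE41* -0.73 (adjusted p = 0.403). Of 9 tested potassium channel genes 1 was higher, *KCNAB3*, with 3, 4 and 3 UMIs in members (2.20 ± 0.65, adjusted p = 0.0312), too few to be tested against depth-matched cells.

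Targets of YAP and TEAD, the transcription factors of the Hippo pathway, held 3 higher and 0 lower genes of 13 tested (median 0.18). *CCN1*, a matricellular protein gene, was at 2.67, 1.80 and 0.598 in members and 0.889, 0.630 and 0.347 in the compared cells, a rise of 1.14 ± 0.13 (adjusted p = 1.13e-07) and of 0.70 against depth-matched cells (adjusted p = 0.000472). Cow 1 was highest and cow 3 lowest in both groups, and members were higher in each cow. Its relative *CCN2* rose by 1.68 ± 0.34 (adjusted p = 0.000797) but had 23, 23 and 2 UMIs in members and 1.15 against depth-matched cells (adjusted p = 0.0932). Immediate-early and stress genes held 5 higher and 2 lower genes of 19 (median 0.30), and 4 were higher and 0 lower against depth-matched cells. *ZFP36*, which promotes decay of inflammatory mRNAs, rose by 0.76 ± 0.13 (adjusted p = 9.51e-05) and by 0.58 against depth-matched cells (adjusted p = 0.00921). Against all *DLK2*+ *AOX1*- cells *ZFP36* was not called (0.23, adjusted p = 0.337, higher in 2 of 3 cows). The heat shock gene *HSPH1* fell (-0.81 ± 0.21, adjusted p = 0.0124), and had -0.53 against depth-matched cells (adjusted p = 0.469). In the list of NF-kB targets and chemokines 3 of 15 were higher (median 0.07), namely *BIRC3*, *NFKBIA* and *IER3*, with 1.04 ± 0.26, 0.58 ± 0.13 and 0.44 ± 0.09, and none passed against depth-matched cells, where they had 0.67, 0.44 and 0.33.

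Genes lower in members included some of VFA handling, of the other keratinocyte layers and of division. Of 6 tested VFA metabolism genes 4 were lower and 0 higher (median -0.65). *BDH1*, which turns acetoacetate into beta-hydroxybutyrate, was at 1.22, 0.846 and 0.894 against 1.74, 1.52 and 1.11 (-0.72 ± 0.11, adjusted p = 1.66e-05), and the thiolase genes *ACAT1* and *ACAT2* fell by 0.58 and 0.79 on the log2 scale (adjusted p = 0.00265 and 0.00967). Against depth-matched cells *BDH1* had -0.24 (adjusted p = 0.596), and neither thiolase gene passed there, with -0.19 (adjusted p = 0.736) and -0.55 (adjusted p = 0.231).

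Of 12 tested VFA transport genes 2 were lower (median -0.31, and 0.002 against depth-matched cells). The monocarboxylate transporter gene *SLC16A1* was at 2.46, 1.51 and 3.33 against 4.58, 3.1 and 3.73 (-0.81 ± 0.15, adjusted p = 0.000241), with the narrowest gap in cow 3. *SLC4A9*, an anion exchanger gene, fell (-0.96 ± 0.28, adjusted p = 0.0292). Neither passed against depth-matched cells, where *SLC16A1* had -0.34 (adjusted p = 0.227) and *SLC4A9* -0.82 (adjusted p = 0.234). The urea transporter gene *SLC14A1*, which was on no list, was at 0.138, 0.108 and 0.233 against 0.709, 0.411 and 0.428, without overlap (-1.69 ± 0.23, adjusted p = 3.36e-06), and passed against depth-matched cells with -0.99 (adjusted p = 0.0387). Of the 13 mitochondrially encoded genes 10 were lower in the second comparison (median -0.46), and 2 of them, *COX2* and *CYTB*, against depth-matched cells. Their summed level was 1142, 921 and 1111 in members against 1795, 1179 and 1243. The part of the lower mitochondrial share in the results was not tested, but with mitochondrial and ribosomal protein genes left out the counts were 231 higher and 364 lower.

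Spinous and channel-gap-like genes, which mark layers above the basal one in the study, held 6 lower and 0 higher genes of 10 (median -0.95), and 1 lower, *FABP4*, against depth-matched cells (median -0.28). *FABP4* was at 0.180, 0.231 and 0.109 against 0.599, 0.712 and 0.306, without overlap (-1.86 ± 0.40, adjusted p = 0.00164, and -1.25 with adjusted p = 0.0389 against depth-matched cells). The keratin gene *KRT6A* fell (-0.78 ± 0.14, adjusted p = 0.000272), and did not pass against depth-matched cells (-0.32, adjusted p = 0.636). *GSTA1*, a glutathione transferase gene, fell by 1.13 on the log2 scale (adjusted p = 0.00104). It had -0.36 against depth-matched cells (adjusted p = 0.685), and with all cells thinned to 5000 UMIs its value turned to 0.10 (adjusted p = 0.954).

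Of the 16 basal keratinocyte genes, 5 were lower (*IGFBP6*, *ITGA6*, *KRT14*, *KRT15* and *KRT5*) and *CDH3*, P-cadherin, was higher, with a median of 0.01. Their summed level, which the most abundant keratins weigh most in, was 112, 127 and 151 in members against 131, 143 and 191 in *DLK2*+ *AOX1*- *PDK4*- cells, lower in each of the 3 cows. *IGFBP6*, an insulin-like growth factor binding protein gene, was at 0.249, 0.169 and 1.28 in members and 0.657, 0.708 and 2.54 in *DLK2*+ *AOX1*- *PDK4*- cells. It was lower in each cow, and cow 3 was far above the others in both groups. The log2 fold change was -1.33 ± 0.21 (adjusted p = 2.53e-05) and -1.16 against depth-matched cells (adjusted p = 1.7e-05). *KRT14*, the basal keratin, was at 15.5, 26.6 and 30.2 against 21.0, 31.0 and 48.7 (-0.66 ± 0.08, adjusted p = 8.14e-07), and its partner *KRT5* fell too (-0.55 ± 0.07, adjusted p = 2.98e-06). Both also passed against depth-matched cells, with -0.51 and -0.37, and with *IGFBP6* they were the 3 basal genes called there.

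Of 20 G2/M genes 4 were lower and 0 higher (median -1.25), while of 19 tested S phase genes 0 were called by edgeR, with 0 at an unadjusted p under 0.05 and 0 called by DESeq2 (median -0.18). The G2/M genes summed to 0.442, 2.55 and 3.23 UMIs per 10000 in members and 4.21, 1.64 and 7.25 in the compared cells, so members of cow 2 were higher. *BIRC5*, the survivin gene, had 2, 6 and 25 UMIs in members (-1.61 ± 0.36, adjusted p = 0.00243), and *TPX2*, a spindle assembly factor gene, had 3, 4 and 23 (-1.47 ± 0.38, adjusted p = 0.0102). *TOP2A*, the DNA topoisomerase gene of dividing cells, had a UMI in 2.13%, 4.23% and 8.0% of members and 7.85%, 4.27% and 13.2% of *DLK2*+ *AOX1*- *PDK4*- cells. None of the 4 G2/M genes passed against depth-matched cells, where *BIRC5* had -1.29 (adjusted p = 0.0731), *TPX2* -1.24 (adjusted p = 0.162) and *TOP2A* -1.10 (adjusted p = 0.193), and the list median was -0.91. DESeq2 called 2 of the 20 in the second comparison and 0 in the first. *PLK4*, a kinase of centriole copying, had 0 UMIs in members and 145 in the compared cells, which makes it at least 3.26-fold lower when 3 UMIs are allowed over all members, and it missed the threshold against depth-matched cells (adjusted p = 0.157). *DZIP1L*, a cilium gene, had 0 against 73, or at least 1.64-fold lower.

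*M-SAA3*, a serum amyloid gene of the acute phase, had the lowest fold of the genes called in the first comparison (-2.55 ± 0.41, adjusted p = 0.000372), with 16, 0 and 0 UMIs in members and a level of 0.470, 1.23 and 0.0185 in *DLK2*+ *AOX1*- *PDK4*- cells (second comparison -3.05 ± 0.78, adjusted p = 0.0106, and 0.0203 against depth-matched cells). It and *SAA3* are near copies, as are the beta-defensin genes behind *DEFB*, so their reads may have been split between copies and these values are uncertain. Of 17 tested NRF2 targets, the genes of the response to oxidants, 4 were lower and 0 higher (median -0.28), with *TXN*, thioredoxin, at 2.40, 2.43 and 3.24 against 2.97, 3.61 and 4.43 (-0.64 ± 0.09, adjusted p = 3.36e-06, and -0.33 with adjusted p = 0.0731 against depth-matched cells). In the list of WNT and BMP genes 1 of 25 was higher, the receptor gene *FZD6* (0.71 ± 0.21, adjusted p = 0.0352), and 1 was lower, the BMP target *ID1* (-0.45 ± 0.13, adjusted p = 0.0353). Neither passed against depth-matched cells, where *FZD6* had 0.68 (adjusted p = 0.385) and *ID1* -0.34 (adjusted p = 0.523).

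Against all *DLK2*+ *AOX1*- cells, the first comparison, the lists with a call were these. There 2 of 10 tested Notch genes were higher and 0 lower (median 0.19, with 0.01 over all genes), 2 of 8 YAP and TEAD targets were higher (0.32), and 2 of 6 VFA metabolism genes (-0.44), 4 of 10 spinous and channel-gap-like genes (-0.56), 4 of 13 G2/M genes (-1.05) and 8 of 13 mitochondrially encoded genes (-0.33) were lower. The immediate-early and stress list had 1 gene higher and 2 lower of 18 (0.07), where the second comparison had 5 and 2. Its summed level was higher in members of each of the 3 cows in both comparisons. Whether the 2 balances differ was not tested. The NF-kB and chemokine list had 3 of 13 higher (0.24), and the clock and PAR bZIP list 2 higher and 1 lower of 13 (0.30). The basal list had 1 higher and 4 lower of 15 (0.03), the *PDK4*-linked list 2 higher and 2 lower of 24 (0.12), and the aldehyde and retinoid list 1 higher and 1 lower of 12 (0.06). In the NRF2 list 1 of 16 was lower (-0.25), in the VFA transport list 1 of 10 (-0.20) and in the terminal differentiation list 1 of 4 (-0.43). The 3 marker genes *UACA*, *HLF* and *KCNAB1*, chosen with earlier results of these data known, were all higher (0.72). Against depth-matched *DLK2*+ *AOX1*- cells none of these lists but the basal one held a call. *IGFBP6* and *KRT14* of the basal list were the called list genes that passed there, with -0.99 (adjusted p = 0.000262) and -0.46 (adjusted p = 0.00709).

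**Figure D3:**
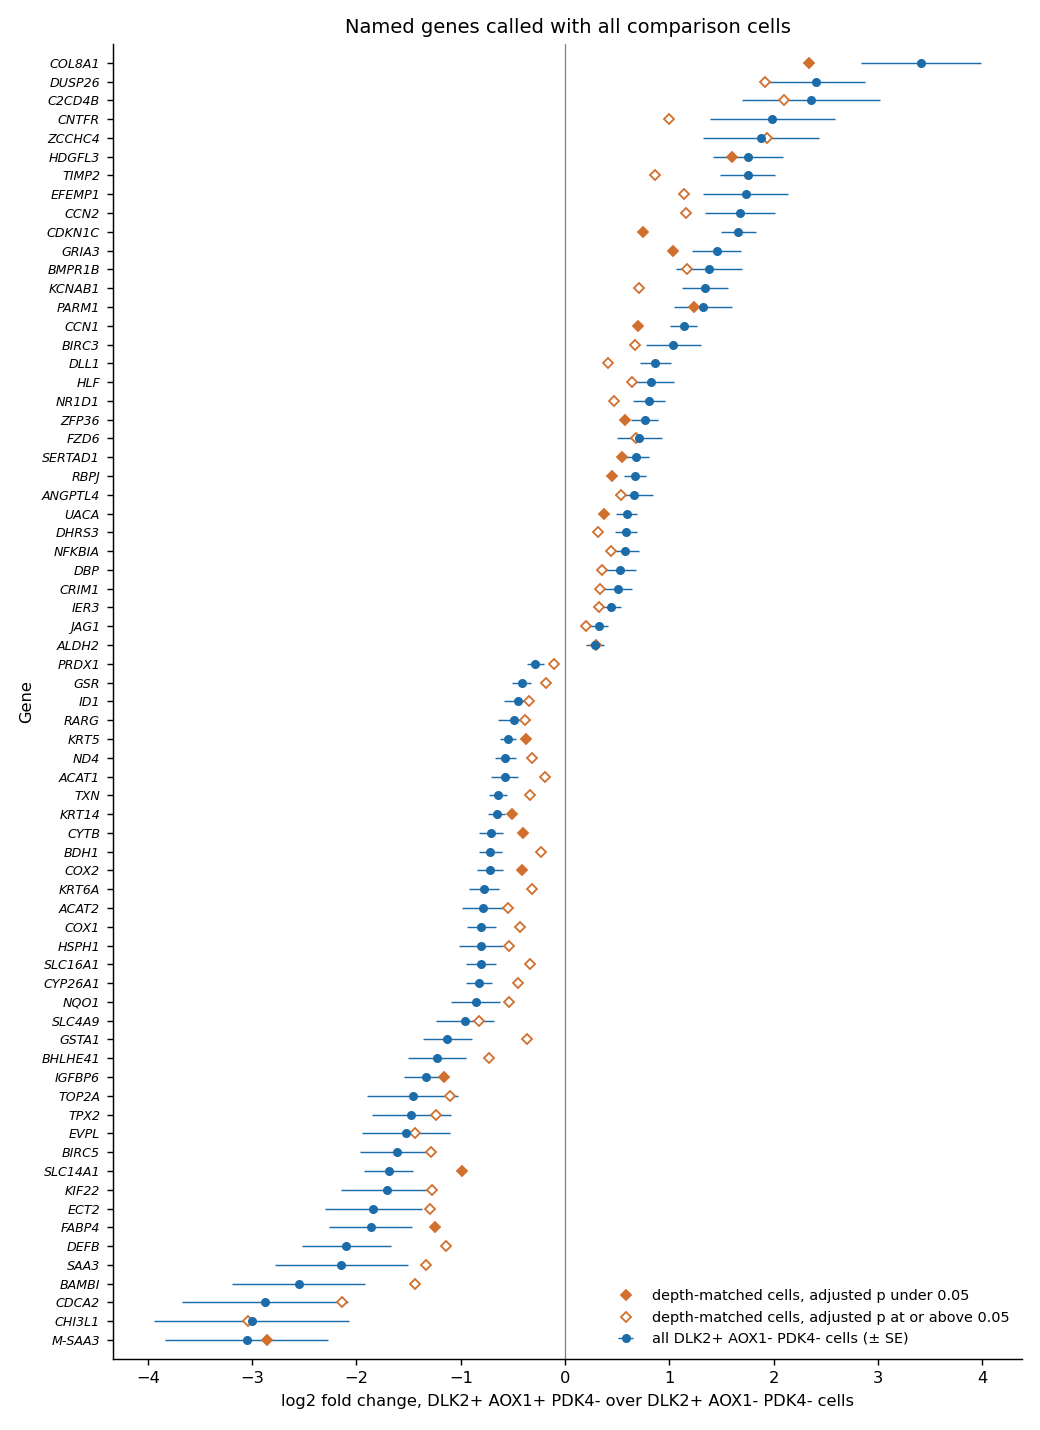
Log2 fold changes of 69 named genes between members and *DLK2*+ *AOX1*- *PDK4*- cells, with all compared cells (points with SE) and with cells matched on UMIs per cell (diamonds, filled where the adjusted p was under 0.05). All 69 kept their sign, 66 were smaller in size and 18 had an adjusted p under 0.05 against depth-matched cells, among them *CDKN1C*, *CCN1*, *UACA*, *IGFBP6* and *KRT14*. The matched cells were drawn from the compared cells and the genes were chosen with all of them, so kept signs are a description. *PLK4*, with 0 UMIs in members, was not drawn.

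Levels were also set out by the number of *AOX1* UMIs in a cell, as a description. Among *DLK2*+ *PDK4*- cells, 3538 had 0 UMIs of *AOX1*, 223 had 1, 51 had 2 and 41 had 3 or more. Over these steps the mean level of *UACA* over cows was 7.72, 12.3, 15.4 and 17.5, that of *CDKN1C* was 0.279, 0.916, 1.06 and 1.81, and that of *HLF* was 0.194, 0.329, 0.396 and 0.891. *IGFBP6* went the other way, with 1.30, 0.681, 0.199 and 0.155. The order did not hold for every gene or cow. *KCNAB1* was at 0.0927, 0.239, 0.398 and 0.191, and *GRIA3* at 0.126, 0.349, 0.587 and 0.543, so both were lower at 3 or more UMIs than at 2. These 2 steps rested on few molecules, with 16 and 5 UMIs of *KCNAB1*, 23 and 15 of *GRIA3* and 8 and 2 of *IGFBP6*. *HLF* was at 0 in cow 2 at 2 UMIs, and *UACA* went from 23.2 to 21.5 over the last step in cow 1 and from 9.74 to 8.94 between 1 and 2 UMIs in cow 2. Depth was lower at 3 or more UMIs than at 0, with medians of 6298 against 9932 UMIs in cow 1, 7379 against 12380.5 in cow 2 and 5231 against 9348 in cow 3. It fell at each step in cows 1 and 3, while in cow 2 it was 7019 at 2 UMIs and higher, 7379, at 3 or more. With members restricted to those with at least 2 UMIs of *AOX1* (92 cells), the called genes of the second comparison had a median of 1.40 times their log2 fold change.

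Cells just outside the other 2 parts of the rule are given as a description. The 405 *AOX1*+ *PDK4*- cells with 0 UMIs of *DLK2* had a mean *UACA* level of 8.98, against 15.3 in the 178 with 1 UMI and 12.3 in the 137 with 2 or more. The 160 *DLK2*+ *AOX1*+ cells with 1 UMI of *PDK4* had 12.7 against 13.5 in the 315 members, and their *CDKN1C* level was 1.24 against 1.00. The 506 with 2 or more UMIs of *PDK4* had 12.5 of *UACA* and 1.44 of *CDKN1C*.

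**Figure D4:**
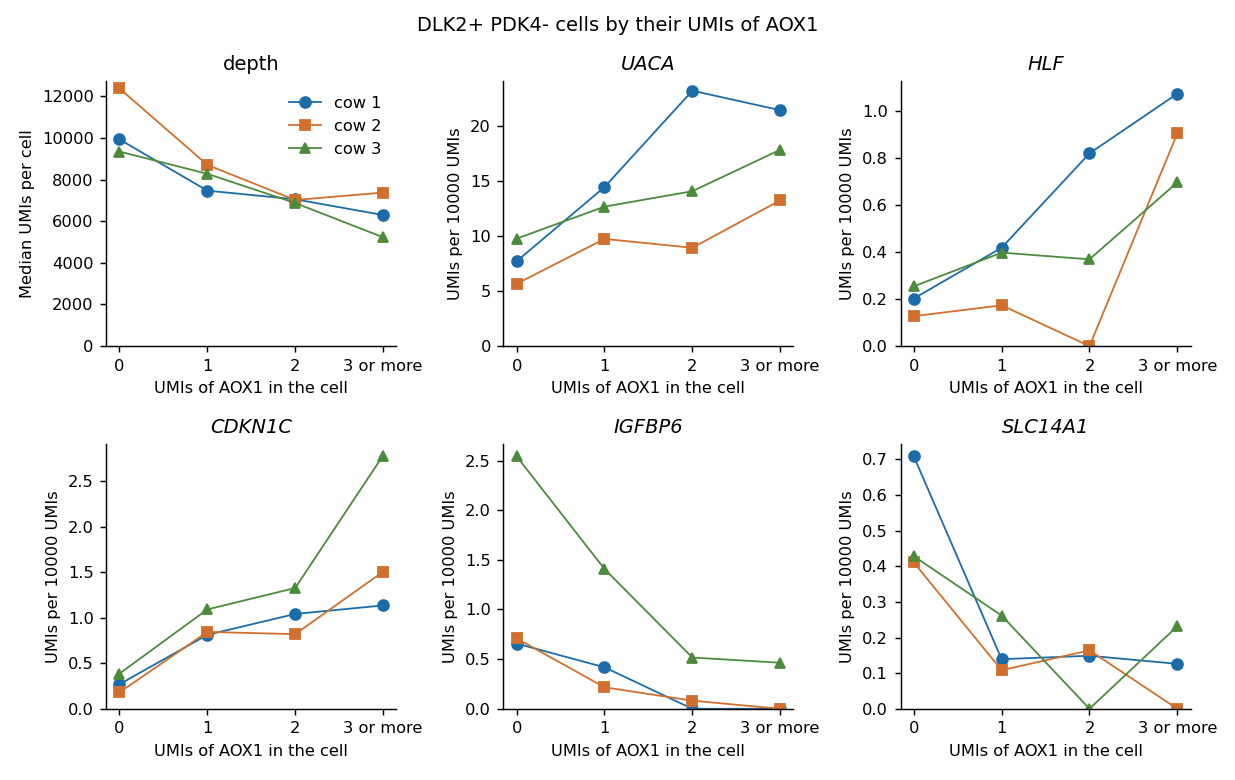
Median UMIs per cell and the levels (UMIs per 10000) of 5 genes in *DLK2*+ *PDK4*- cells with 0, 1, 2 and 3 or more UMIs of *AOX1*, 1 line per cow. From 0 to 3 or more UMIs *CDKN1C* went from 0.270 to 1.14 in cow 1, from 0.181 to 1.51 in cow 2 and from 0.387 to 2.78 in cow 3, while depth fell in each cow.

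The members were then compared with the other *DLK2*+ *AOX1*+ cells, those with *PDK4*. Against the 666 *DLK2*+ *AOX1*+ *PDK4*+ cells, 4 of 10250 genes were called (0.039%), and 717 had an unadjusted p under 0.05. Against depth-matched *DLK2*+ *AOX1*+ *PDK4*+ cells 10 genes were higher and 17 lower (0.322% of 8397), and 6 of the lower ones were immediate-early and stress genes. That list, of which 1 gene was lower without the matching, summed to 136, 132 and 50.0 UMIs per 10000 in members and 170, 167 and 72.5 in *PDK4*+ cells, lower in each of the 3 cows. The G2/M genes, of which 0 were called by edgeR or DESeq2, with 9 of 20 at an unadjusted p under 0.05, summed to 0.442, 2.55 and 3.23 in members and 0.368, 0.301 and 2.47 in *PDK4*+ cells, higher in each of the 3 cows. *ZFP36* was at 2.69, 6.17 and 0.715 in members and 3.84, 9.26 and 1.32 in *PDK4*+ cells (-0.68 ± 0.14, adjusted p = 0.0452), and *SERTAD1*, a transcriptional coregulator gene, was at 0.801, 2.75 and 0.591 against 1.34, 3.25 and 1.31 (-0.62 ± 0.13, adjusted p = 0.0492). Against depth-matched cells they had -0.77 and -0.74 (adjusted p = 0.00121 and 0.00201), and with thinned cells neither passed (-0.60 and -0.53, adjusted p = 0.0764 and 0.509). Both were lower in members of each cow, and both lay above *DLK2*+ *AOX1*- *PDK4*- cells. The other 2 calls did not have the same direction in all cows and are named here after their values were seen. *IL6*, the cytokine gene, had 0, 7 and 0 UMIs in members and 22, 209 and 0 in *PDK4*+ cells (-2.68 ± 0.49, adjusted p = 0.0366). *TNFRSF6B*, a decoy receptor gene, had 18, 26 and 3 UMIs against 6, 14 and 2 (2.85 ± 0.55, adjusted p = 0.038).

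The sizes of the differences between both *AOX1*+ groups were small for abundant genes. Of 873 genes above 100 CPM (UMIs of the gene scaled to a common library total), 851 (97.5%) had a log2 fold change within 0.5, with a median SE of 0.10. The same share for the second comparison is not given here, so this share does not set the comparisons apart. The genes called higher in members in the second comparison had a median log2 fold change of -0.07 here and those called lower had 0.05. *CDKN1C* had -0.57 ± 0.16 (adjusted p = 0.297), *UACA* 0.04 ± 0.10 (adjusted p = 0.976), *KCNAB1* -0.21 ± 0.22 (adjusted p = 0.901) and *IGFBP6* 0.52 ± 0.28 (adjusted p = 0.772). A p above the threshold does not show that these levels are equal. For *CDKN1C* the members were lower in each of the 3 cows, at 0.926, 0.908 and 1.17 against 1.33, 1.24 and 1.59.

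The same contrast was then made in cells without *DLK2*, to ask whether the differences belong to *DLK2*+ cells. The interaction term, that is, the *AOX1* difference in *DLK2*+ *PDK4*- cells minus that in *DLK2*- *PDK4*- cells, called 0 of 10250 genes by edgeR (0%), with 480 at an unadjusted p under 0.05, and 0 by DESeq2, with 382. Of the 668 genes called in the second comparison, 635 had the same direction in *DLK2*- cells by the mean over cows, and 506 in all 3 cows, while 4 had the opposite direction in all 3. The median log2 difference of the genes called higher was 0.91 with *DLK2* and 0.72 without it, and of those called lower -0.37 and -0.31. These differences were taken on CPM with 1 added, a scale other than that of the edgeR fold changes. By edgeR the medians of the same genes with *DLK2* were 0.75 and -0.54. These genes were chosen for their difference in *DLK2*+ cells, so the medians are a description. *CDKN1C* was at 0.837 ± 0.26 in *DLK2*- *AOX1*+ *PDK4*- cells and 0.117 ± 0.0447 in *DLK2*- *AOX1*- *PDK4*- cells (SD, n = 3), and *UACA* was at 8.98 ± 2.06 and 4.25 ± 1.59. The interaction term of *CDKN1C* was -0.97 ± 0.22, a larger *AOX1* difference in cells without *DLK2*. It was not called (adjusted p = 0.634, and 0.339 with depth-matched cells), but it was called with all cells thinned to 5000 UMIs (-1.24, adjusted p = 0.00548) and with at least 2 UMIs of *AOX1* (-1.77, adjusted p = 0.00321). Of the other named genes, *GSTA1* was called with thinned cells (2.18, adjusted p = 0.0112, against -0.11 ± 0.29 without thinning), and *BPIFA2C* with depth-matched cells (3.59, adjusted p = 0.0338, against -0.46 ± 0.58 without matching).

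Genes used to define other groups of *DLK2*+ cells were also found in members. *SOSTDC1*, an antagonist of BMP and WNT, had a UMI in 3.19%, 2.82% and 26.0% of members and 7.51%, 2.47% and 19.2% of *DLK2*+ *AOX1*- *PDK4*- cells, and *CCL20*, a chemokine gene, in 3.19%, 14.1% and 0% of members (0 of 150 in cow 3, which allows up to 2.43% by the exact binomial interval) against 1.34%, 12.2% and 0.318%. Cow 3 was high in the first and cow 2 in the second, in both groups of cells. For comparison, *UACA* stood at 12.1 ± 2.61 in the 1210 *DLK2*+ *PDK4*+ *CDKN1C*+ cells and 9.63 ± 3.28 in the 686 *DLK2*+ *SOSTDC1*+ *AOX1*- cells, beside 13.5 ± 3.86 in members (SD, n = 3 cows).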

How the data were processed

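Rumen epithelial cells of 3 cows were measured with Chromium 3' v3 chemistry. Whole-number counts of UMIs, 1 value for each gene in each cell, were made by the authors with Cell Ranger 3.1.0 on the *Bos taurus* assembly ARS-UCD1.2 (written ARS-USD1.2 in the study) and filtered with Seurat on genes, UMIs and mitochondrial share. They used DoubletFinder to find doublets. No further doublet call was made here. The authors also deposited natural log values, ln(1 + 10000 × UMIs / total), which matched the counts within 1e-06 and supplied the 19533 gene names. Barcode suffixes gave the cow.

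Members and gene lists were chosen with earlier results of these data known. Counts were summed per cow and group (member sums 723717, 650085 and 1286846 UMIs), scaled by TMM, filtered by filterByExpr and tested in edgeR 4.0.16 (R 4.3.3; DESeq2 1.42.0 as an alternative) with the cow as a block. The first comparison used 9 sums and the others the 24 sums of 8 groups by the 3 rule genes. Deviations from group means correlated at 0.459 to 0.890 between sums of the same cow (18 pairs). A cow's sums come from 1 library, so the cow pairs them, and cow and library cannot be told apart. With the block, p-values rest on the spread left after group and cow, pooled over all 9 or 24 sums of a fit. They do not rest on a gene's 3 differences between members and compared cells alone. Intervals cover counting error only. The scripts were tested on simulated data with known changes. Thinning drew 5000 UMIs per cell, leaving out 1518 shallower cells, 55 of them members. For the thinned tests the rule was applied again to the thinned counts, so cells could change group. This gave 166 members and 2538 *DLK2*+ *AOX1*- *PDK4*- cells. Depth matching used 10 bins per cow.

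Named were, in each of the first 3 comparisons, the 10 called genes with the largest rise and the 10 with the largest fall in the same direction in 3 cows, the rule and marker genes, and up to 4 called genes per list. Some items that fall under this rule are not reported here. Positions and sequences were not used here. Python 3.11.15, pandas 2.3.3 and matplotlib 3.10.9 were used for tables and figures.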

Additional observations from a re-analysis of the deposited data

How the results depend on the processing

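Counts of genes higher and lower in members are given as pairs. Against *DLK2*+ *AOX1*- cells (117 and 193) DESeq2 called 65 higher, no filter on low counts 316 lower, thinned cells 13 and 37, and depth-matched cells 9 and 6. Leaving out 1 cow gave 41 to 100 higher and 78 to 180 lower, with 47 and 78 without cow 1 and 41 higher without cow 3. Against *DLK2*+ *AOX1*- *PDK4*- cells (188 and 480) RLE scaling called 314 lower, DESeq2 316 and 303, thinned cells 61 and 125, and depth-matched cells 47 and 35. Leaving out 1 cow gave 91 to 168 and 163 to 403, with 91 and 163 without cow 1 and 119 and 199 without cow 2. The share of higher genes among these calls was 28.1%, and 46.1% with RLE, 51.1% with DESeq2 and 57.3% with depth matching. Against *DLK2*+ *AOX1*+ *PDK4*+ cells (1 and 3) RLE called 1 lower, DESeq2 2 and 10, no filter 28 and 33, thinned cells 0 lower, depth-matched cells 10 and 17, and at least 2 UMIs of *AOX1* 0 lower. Leaving out 1 cow gave 0 to 1 and 0 to 3, with 0 and 0 without cow 1 and 0 higher without cow 2. For the interaction (0 and 0) no filter called 2 and 2, thinned cells 2 and 3, depth-matched cells 2 higher and at least 2 UMIs of *AOX1* 1 lower. *GSTA1* turned to 0.36 in the first comparison and 0.10 in the second with thinned cells. The causes were not tested.

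Without the block by cow, which pairs the sums, the calls were 0 and 0, 1 and 1, 0 and 0, and 0 and 0 in the 4 comparisons. Of values for named genes, 3 kept their side of the threshold without the block, which can include staying uncalled, and 134 fell below it. Against depth-matched cells 27 kept their side and 99 fell below, and with thinned cells 42 and 60. Without the block no called named gene kept an adjusted p under 0.05 by edgeR. The lowest was 0.0649, for *CDKN1C* in the second comparison. The limits are 3 cows, a rule that for most members rests on 1 UMI, and member sums of at most 1286846 UMIs.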
